A study of Arabidopsis thaliana with 24 samples.

Results

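Arabidopsis thaliana plants carrying a truncated but catalytically intact DXO1 were compared with the wild type Col-0 at an age of 21 days, in 8 of the 24 libraries of the series. The 4 libraries of the truncated line have the genotype 35S::DXO1(ΔN194) dxo1-2, that is, the mutant dxo1-2 with a transgene for a DXO1 lacking its N-terminal extension, driven by the viral 35S promoter, which is active in most plant cells. The 4 Col-0 libraries carry neither the mutation nor a transgene. For some genes 4 libraries of the parent mutant dxo1-2 and 4 of 35S::DXO1 dxo1-2, which carries the full-length active protein, are set between them. The libraries were picked by their labels alone. All plants grew on soil under long days after cold stratification of the seed, and the labels name the tissue as seedlings. The truncated line therefore differs from Col-0 in the mutation, the shortened protein, the promoter and any event particular to the transformant, which cannot be told apart here. Whether more than 1 transformant was used is not given in the sources used here.

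DXO proteins are enzymes that act on the 5′ ends of RNA, where they remove incomplete caps and the noncanonical NAD cap and can degrade the RNA that follows. Plant DXO1 carries an additional N-terminal extension that animal and fungal relatives lack, and loss of DXO1 in Arabidopsis is known for slow growth, pale leaves and raised defence gene expression. The protein is also known to act with a cap methyltransferase in completing the normal cap. Expression was read by 3′ RNA-seq, which reads only the last stretch of each polyadenylated transcript.

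The 8 libraries held 1449681 to 2545682 counts, and 18213 to 19106 genes had at least 1 count in the truncated line, against 17369 to 18298 in Col-0 (two-sided exact permutation p 0.0571, n = 4 and 4; 0.0286 is the smallest that 4 against 4 can give). Counts were less concentrated in the truncated line, where the 100 most abundant genes of a library took 36.4% ± 1.19 of its counts, against 46.5% ± 1.09 in Col-0 (SD, n = 4 each, two-sided exact permutation p 0.0286). Mitochondrial genes took 0.113% ± 0.0140 of the counts in the truncated line and 0.0579% ± 0.00834 in Col-0 (SD, exact permutation p 0.0286). Within the full-length active line alone that share ran from 0.0627% to 0.118%, and 6 of 152 mitochondrial genes had enough counts to be tested. Chloroplast genes took 4.19% ± 0.503 in the truncated line and 4.61% ± 0.417 in Col-0 (SD, exact permutation p 0.371). Replicates are separate labelled samples, but the labels do not say that they came from separate plants, so p-values measure the spread between these samples. Over all tested genes, replicates 2 and 4 of the truncated line were the least alike pair (Pearson correlation of log2 expression 0.825). The least alike Col-0 pair, replicates 3 and 4, had 0.942. Replicate 4 of the truncated line stood apart from the other 3 in several cold and defence genes, and replicate 2 in several clock and chaperone genes. Values without these libraries are given where they matter.

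The DXO1 transcript itself (AT4G17620, annotated as a glycine-rich protein) was low. It reached 5.99, 1.98, 4.41 and 5.42 CPM in the truncated line, against 11.8, 15.9, 19.1 and 15.5 CPM in Col-0. Every library of the truncated line lay below every Col-0 library, with a log2 change of -1.84 ± 0.29 (SE, adjusted p 2.2e-05 by edgeR). The level was close to that of the parent mutant, which averaged 3.36 ± 0.645 CPM (log2 fold change over dxo1-2 of 0.40 ± 0.35 SE, adjusted p 0.547 by edgeR), and below the full-length active line, which averaged 12.1 ± 1.24 CPM (log2 fold change of -1.49 ± 0.29 SE, adjusted p 2.1e-04 by edgeR). Whether the counted 3′ end is present in the transgene is not given in the sources used here, so these reads do not check that the truncated protein was made.

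Of 13592 genes tested, 3967 were called between the truncated line and Col-0 at an edgeR adjusted p under 0.05, which is 29.2% of them. The called genes were 2287 higher (16.8%) and 1680 lower (12.4%) in the truncated line, so 57.7% of calls were higher. That share was 47.7% (2314 higher and 2542 lower) once the trend of expression on transcript length was removed from each library, a step that moved the median log2 fold change of all tested genes by -0.10. At least 2-fold changes were found for 1601 genes above Col-0 and 911 below it, and at least 8-fold changes for 122 above and 63 below. Across all tested genes the median log2 fold change was 0.08, with quartiles of -0.38 and 0.63, and 27.7% had CPM values that did not overlap between the 2 groups of 4. CPM are counts per 1000000 of the library's normalized total.

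**Figure D1:**
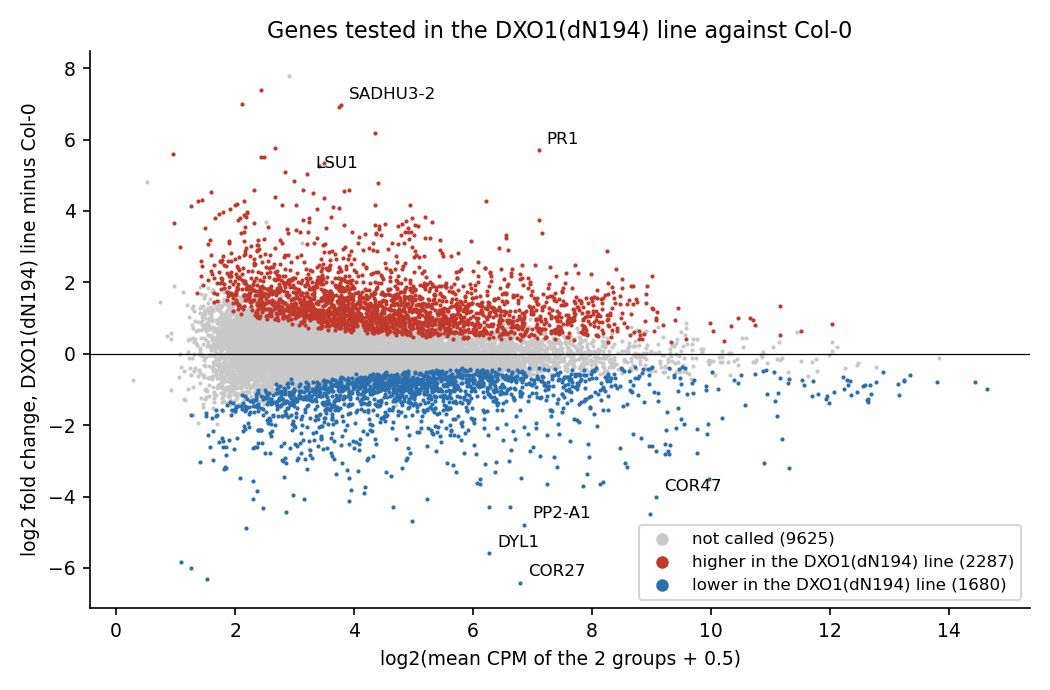
Each point is 1 tested gene, with log2 of its mean CPM (plus 0.5) over the truncated line and Col-0 on the x axis and the log2 fold change on the y axis. Genes called higher (2287) are red, genes called lower (1680) blue and others grey; COR27 is the lowest named gene, at -6.41, and PR1 stands at 5.71 among the highest.

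The 12 genes with the highest fold changes in the truncated line were nearly silent in Col-0, apart from PR1 (3.41 to 6.57 CPM there). None of these 12 was called against dxo1-2, where 3.03% of all tested genes were called (lowest edgeR adjusted p 0.133, for LSU1). The noncoding RNA AT2G06185 had 8.98, 6.28, 12.1 and 12.05 CPM in the truncated line and 0 counts in all 4 Col-0 libraries, so it was at least 21.0-fold higher, computed against 3 counts over the Col-0 group. SADHU3-2 (AT3G42658), a pseudogene named after the Sadhu retroelements, had 21.4, 19.5, 28.3 and 36.1 CPM in the truncated line, against 0.473, 0, 0 and 0 CPM in Col-0, a ratio of 167-fold (exact 95% counting interval 29.7 to 6625). Few Col-0 counts likewise lay behind the ratios of AT5G26270, an uncharacterized protein gene, at 162-fold (exact 95% counting interval 28.8 to 6432), of AT2G21220, a SAUR-like auxin-responsive gene, at 72.0-fold (exact 95% counting interval 12.6 to 2871), and of BBX30 (AT4G15248), a B-box transcription regulator, at 58.7-fold (exact 95% counting interval 10.3 to 2346). Such intervals cover counting error only. SADHU and SAUR genes have close copies, and how shared reads were counted is not given in the sources used here. SADHU3-2 was higher still in the full-length active line, at 51.9 ± 6.17 CPM, and averaged 16.5 ± 5.55 CPM in dxo1-2.

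PR1 (AT2G14610), a secreted protein used as a marker of salicylate defence, was the most abundant of these genes. It had 237, 102, 253 and 481 CPM in the truncated line, against 4.26, 6.05, 3.41 and 6.57 CPM in Col-0. All 4 truncated libraries were far above Col-0, with a log2 change of 5.71 ± 0.58 (SE, adjusted p 2.1e-08 by edgeR), and the level was close to that of dxo1-2 at 289 ± 201 CPM. ELIP2 (AT4G14690), an early light-inducible protein of the thylakoid, averaged 21.0 ± 4.197 CPM in the truncated line and 0.426 ± 0.497 CPM in Col-0, a ratio of 45.0-fold (exact 95% counting interval 15.2 to 219.9). The vacuolar cation exchanger gene CAX3 (AT3G51860) averaged 19.9 ± 12.6 CPM in the truncated line and 0.448 ± 0.896 CPM in Col-0, with replicates 1 to 3 of Col-0 at 0 and a ratio of 39.8-fold (exact 95% counting interval 13.4 to 195). LSU1 (AT3G49580), a gene that answers low sulphur, had 12.5, 8.60, 19.5 and 27.7 CPM in the truncated line, against 0.473, 0.756, 0 and 0.597 CPM in Col-0. The remaining genes of this group were AT5G47610, a RING/U-box gene with a ratio of 61.5-fold (exact 95% counting interval 10.8 to 2457), the pseudogene AT2G11410 with one of 33.3-fold (exact 95% counting interval 11.2 to 163), and AT3G13950, an ankyrin gene. AT3G13950 had 2.00, 0.661, 4.77 and 44.6 CPM in the truncated line, against 0.473, 0, 0 and 0.597 CPM in Col-0. Replicate 4 of the truncated line held most of its reads, and without it the gene was not called (edgeR adjusted p 0.0683). SADHU3-2, AT5G26270, AT2G21220, BBX30, AT5G47610, CAX3, ELIP2 and AT2G11410 moved by over 1.5-fold when 1 Col-0 library was left out (replicate 1 for SADHU3-2 and ELIP2, 2 for AT5G26270, AT5G47610 and AT2G11410, 3 for AT2G21220 and BBX30, 4 for CAX3), upward in all 8, and all stayed called.

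The 12 genes with the lowest fold changes averaged 1.05 to 63.1 CPM in the truncated line and 15.9 to 1009.8 CPM in Col-0. COR27 (AT5G42900), a cold-induced repressor within the circadian clock, had 2.49, 0.331, 3.67 and 4.22 CPM in the truncated line, against 191, 212, 226 and 239 CPM in Col-0. The groups were far apart, with a log2 change of -6.41 ± 0.47 (SE, adjusted p 8.6e-11 by edgeR). DYL1 (AT1G28330), a dormancy-associated gene, had 1.50, 0.331, 5.14 and 6.02 CPM in the truncated line, against 116, 110.4, 216 and 156 CPM in Col-0, a log2 change of -5.59 ± 0.51 (SE, adjusted p 4.5e-09 by edgeR). AT2G33830, of the same dormancy and auxin-associated family, averaged 43.6 ± 30.6 CPM in the truncated line and 964 ± 249.9 CPM in Col-0 (-4.49 on the log2 scale). PP2-A1 (AT4G19840), a lectin of phloem sap, had 6.48, 5.62, 8.81 and 12.05 CPM in the truncated line, against 221, 209, 249 and 214 CPM in Col-0. It fell by 4.79 on the log2 scale (SE 0.24, edgeR adjusted p 9.8e-14). In bulk RNA, fewer cells of a type and less of a transcript per cell cannot be told apart.

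The other 8 of these 12 genes were the cold-regulated dehydrin COR47 (AT1G20440), described with the cold genes, HVA22E (a homologue of a barley stress protein, -4.69 on the log2 scale), AT5G62360 (a pectin methylesterase inhibitor relative, -4.30), AT4G28140 (an AP2/ERF-type DNA-binding protein, -4.29), TTL4 (a thioredoxin-like repeat protein, -4.28), PAR1 (a regulator of shade responses, -4.13), AT1G49000 (uncharacterized, -4.08) and the expansin EXPA16 (-4.08). EXPA16 (AT3G55500), whose protein loosens cell walls, had close replicates, with 3.99, 4.30, 3.30 and 4.82 CPM in the truncated line, against 63.9, 68.1, 65.4 and 80.0 CPM in Col-0. Without replicate 4 of the truncated line AT1G49000 stood at -5.12, and TTL4 stood at -5.01 without replicate 3, both still called. COR27, DYL1, AT2G33830, AT4G28140, PAR1, AT1G49000, EXPA16 and COR47 were also called lower than in dxo1-2 itself, the parent of the line, where 3.03% of all tested genes were called in either direction. COR27, for example, averaged 47.5 ± 13.2 CPM in dxo1-2, a log2 fold change of the truncated line over dxo1-2 of -4.197 ± 0.48 (SE, adjusted p 1.1e-05 by edgeR). For PP2-A1, at 11.7 ± 4.82 CPM in dxo1-2, the difference did not pass (-0.49 ± 0.26 SE, adjusted p 0.3 by edgeR).

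**Figure D2:**
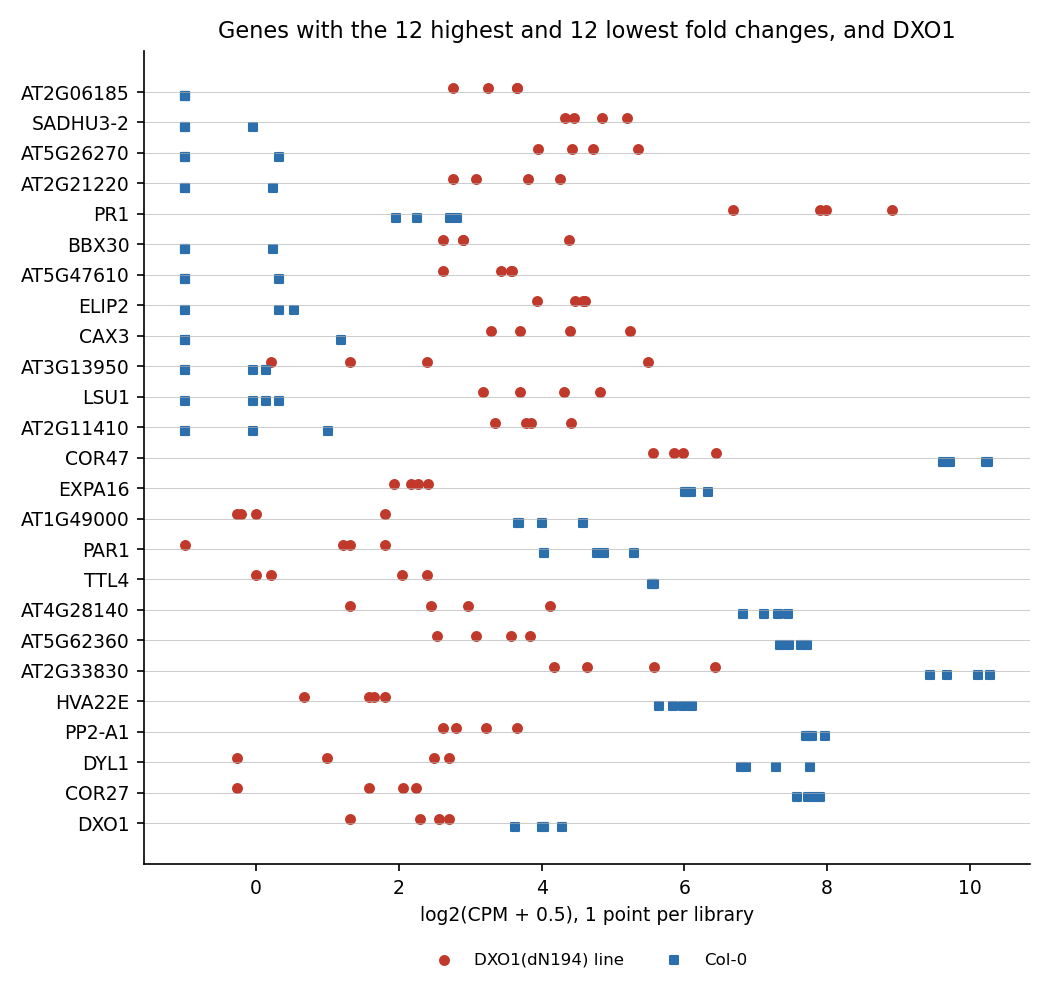
The x axis gives log2(CPM + 0.5) of each library, and rows are the 12 genes with the highest fold changes, the 12 with the lowest, and DXO1, with the truncated line as red circles above Col-0 as blue squares in each row. No overlap of the groups was a condition for picking the 12 highest and 12 lowest genes, and DXO1 shows none either. The 4 truncated libraries spread widely in AT3G13950 (0.661 to 44.6 CPM), where the highest Col-0 library had 0.597 CPM.

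The gene lists from here on were chosen with earlier results of these data known. Their counts beside the share over all tested genes describe these genes and are no independent test. The cold-response genes split by role. CBF1, CBF2 and CBF3 are transcription factors induced within minutes of chilling, and ZAT12 (AT5G59820) is a zinc finger induced with them. The COR genes, which encode dehydrins and other protectants, are known targets of the CBF factors. All 4 factors rose in the truncated line while all 10 targets fell (16.8% of all tested genes were called higher and 12.4% lower). The factor CBF2 (AT4G25470) had 20.0, 13.6, 20.2 and 41.0 CPM in the truncated line, against 1.42, 2.27, 9.54 and 4.18 CPM in Col-0, a log2 change of 2.45 ± 0.51 (SE, adjusted p 5.0e-04 by edgeR). ZAT12 had 47.9, 41.7, 68.3 and 151 CPM in the truncated line, against 7.09, 10.6, 12.3 and 13.1 CPM in Col-0, a log2 change of 2.84 ± 0.38 (SE, adjusted p 2.2e-06 by edgeR). In both genes all truncated libraries were above all Col-0 libraries, with replicate 4 highest. CBF1 and CBF3 rose by 1.56 and 1.65 on the log2 scale, CBF3 with overlap between the groups. Without replicate 3 of Col-0 the CBF2 value was 3.13. The 3 CBF genes are close copies side by side, and their counts may include each other's reads. None of these 4 factors was called different from dxo1-2, which is near the 3.03% of all tested genes called there.

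Among the targets the median log2 fold change was -3.12, with a range of -4.01 to -2.11, against a median of 0.08 over all tested genes. COR15A (AT2G42540), a chloroplast protectant, had 267, 193, 263 and 927 CPM in the truncated line, against 3672, 2875, 3318 and 3708 CPM in Col-0, a log2 change of -3.05 ± 0.37 (SE, adjusted p 4.6e-07 by edgeR). Replicate 4 of the truncated line was the high one, and the value was -3.80 without it. COR47 had 62.3, 57.2, 46.6 and 86.1 CPM in the truncated line, against 1199, 839, 1214 and 787 CPM in Col-0, a log2 change of -4.01 ± 0.28 (SE, adjusted p 2.9e-11 by edgeR), with the truncated libraries close together. RD29A (listed as LTI78 in the annotation) had 20.4, 44.6, 8.08 and 13.3 CPM in the truncated line, against 339, 234, 336 and 209.6 CPM in Col-0, a log2 change of -3.66 ± 0.42 (SE, adjusted p 1.9e-07 by edgeR), and replicate 2 was highest there (-4.37 without it). The dehydrin LTI30 (AT3G50970) had 8.98, 8.27, 8.45 and 222 CPM in the truncated line, against 300.3, 223, 311 and 302 CPM in Col-0. Replicates 1 to 3 were near silent and replicate 4 approached Col-0, so its log2 change of -2.26 ± 0.64 (SE, adjusted p 0.00889 by edgeR) was -5.03 without that library. KIN1 (AT5G15960) had the same pattern, with 4.99, 8.60, 7.34 and 132 CPM in the truncated line, against 215, 181, 237 and 245 CPM in Col-0, and log2 fold changes of -2.60 with and -4.92 without replicate 4. COR15B, KIN2, COR413-PM1, ERD10 and the galactinol synthase GolS3 fell by 3.50, 3.19, 2.11, 2.58 and 3.62 on the log2 scale. KIN1 with KIN2 and COR15A with COR15B are adjacent close copies. Against dxo1-2, 6 of the 10 targets were also lower (COR15B, COR47, KIN2, COR413-PM1, ERD10 and GolS3), and COR15A, RD29A (AT5G52310), KIN1 and LTI30 did not pass. That comparison called 3.03% of all tested genes. For COR47 the means were 138 ± 15.1 CPM in dxo1-2 and 1155 ± 247 CPM in the full-length active line.

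The upstream sequence of 3 of these targets shows the element that CBF factors are known to bind, and it is printed because factors and targets moved in opposite directions. Each window is the 300 bases before the annotated gene start, 5′ to 3′ on the gene's strand, from the TAIR10.1 assembly of RefSeq, with CCGAC (the C-repeat/DRE core), read on either strand, in capitals.
COR15A, chr2:17712331-17712630, minus strand: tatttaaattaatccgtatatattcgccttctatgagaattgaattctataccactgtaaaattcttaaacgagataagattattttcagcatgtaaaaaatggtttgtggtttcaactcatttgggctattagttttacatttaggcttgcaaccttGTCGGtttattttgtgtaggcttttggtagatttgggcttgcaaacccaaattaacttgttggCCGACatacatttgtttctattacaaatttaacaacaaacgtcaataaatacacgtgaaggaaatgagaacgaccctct
RD29A, chr5:21240417-21240716, plus strand: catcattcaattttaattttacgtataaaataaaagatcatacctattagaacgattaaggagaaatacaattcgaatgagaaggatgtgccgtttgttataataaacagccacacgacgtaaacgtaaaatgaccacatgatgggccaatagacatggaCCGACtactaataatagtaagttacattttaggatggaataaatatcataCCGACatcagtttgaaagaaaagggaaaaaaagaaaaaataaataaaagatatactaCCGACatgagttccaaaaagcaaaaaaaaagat
LTI30, chr3:18940343-18940642, plus strand: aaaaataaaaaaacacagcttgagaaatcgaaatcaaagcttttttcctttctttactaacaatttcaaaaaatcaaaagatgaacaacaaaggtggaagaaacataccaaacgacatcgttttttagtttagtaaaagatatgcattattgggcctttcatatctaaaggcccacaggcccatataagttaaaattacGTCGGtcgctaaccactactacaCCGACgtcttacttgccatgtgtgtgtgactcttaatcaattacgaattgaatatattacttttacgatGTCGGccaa
COR15A holds 2 copies, RD29A 3 and LTI30 3. The letters were found in 6 of the 10 target windows (besides these 3, GolS3 with 2, COR15B with 1 and COR413-PM1 with 1), in 18.7% of windows of genes called lower, 14.6% of those called higher and 15.4% of all tested genes. COR47, KIN1, KIN2 and ERD10 hold no match in this window. A match to CCGAC cannot overlap the evening element described with the clock genes.

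The circadian clock genes also divided by role. In the plant clock, morning factors such as CCA1 and LHY repress evening genes, pseudo-response regulators repress the morning factors in turn, and an evening complex of ELF3, ELF4 and LUX acts at dusk and night. Of 23 tested members of 27, 7 were higher and 7 lower (16.8% and 12.4% of all tested genes). The hour of harvest is not given in the sources used here, so a difference in phase and a difference in level cannot be told apart. Of 7 tested morning factors 5 rose, with a median log2 fold change of 1.64, and 6 of 10 evening genes fell, with a median of -1.23. CCA1 (AT2G46830) had 5.99, 10.6, 1.84 and 2.41 CPM in the truncated line, against 1.42, 1.51, 0 and 0 CPM in Col-0, a log2 change of 2.74 ± 0.76 (SE, adjusted p 0.00752 by edgeR). It was low in all libraries and above Col-0 in each truncated library. Its value was 3.40 without Col-0 replicate 1, and without replicate 2 of the truncated line it had too few counts to be tested. LHY, LNK1 and RVE4 stood at 1.78, 1.64 and 0.81 on the log2 scale, and RVE2 had 1 Col-0 count, a ratio of 16.1-fold (exact 95% counting interval 2.61 to 662). The calls of LHY (without Col-0 replicate 1, 2 or 4 or truncated replicate 1), LNK1 (without Col-0 replicate 2 or 4 or truncated replicate 2) and RVE2 (without Col-0 replicate 2, 3 or 4 or truncated replicate 4) each depended on single libraries, and the fitted value of RVE2 moved upward by over 1.5-fold without Col-0 replicate 1, which held its only Col-0 read. A morning factor was called lower with the length trend removed and without truncated replicate 4 (AT5G52660 in the last). The count of 5 morning factors higher was 2 without Col-0 replicate 2 or without Col-0 replicate 4, and 3 without replicate 2 of the truncated line. LNK2 (edgeR adjusted p 0.169) and AT5G52660 (edgeR adjusted p 0.123) were not called. The count of 7 higher was 4 without Col-0 replicate 2, without Col-0 replicate 4, without replicate 2 of the truncated line, and also in a fit of only the 8 libraries.

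Among the genes expressed in the evening, TOC1 (AT5G61380), a pseudo-response regulator, had 26.9, 26.8, 24.2 and 27.7 CPM in the truncated line, against 88.9, 89.2, 129 and 100.3 CPM in Col-0. No library overlapped, and it fell by 1.95 on the log2 scale (SE 0.17, edgeR adjusted p 2.2e-09). ELF4 (AT2G40080) had 4.99, 4.30, 7.34 and 9.64 CPM in the truncated line, against 50.1, 45.4, 47.7 and 59.7 CPM in Col-0, a log2 change of -2.98 ± 0.34 (SE, adjusted p 1.4e-07 by edgeR). AT4G33980, annotated as uncharacterized and on the list as an evening gene, had 0.499, 2.65, 1.47 and 4.22 CPM in the truncated line, against 30.3, 27.2, 41.6 and 31.1 CPM in Col-0, a log2 change of -3.89 ± 0.42 (SE, adjusted p 5.5e-08 by edgeR). LUX (listed as PCL1 in the annotation), FKF1 and LKP2 fell by 1.02, 1.43 and 0.83 on the log2 scale, the last 2 being blue-light F-box proteins. GI (-0.14), ELF3 (-0.26), ZTL (-0.10) and BOA (-1.50) were not called. Against dxo1-2 the truncated line was lower in COR27, AT4G33980, ELF4, LUX, BOA and TOC1 and higher in CDF3 (AT3G47500). That comparison called 3.03% of all tested genes. AT4G33980 averaged 24.2 ± 10.5 CPM in dxo1-2, a log2 fold change of the truncated line over it of -3.42 ± 0.43 (SE, adjusted p 3.9e-05 by edgeR).

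CDF1 and CDF3, repressors of flowering that the clock restricts to the morning, rose by 1.79 and 1.64. Here the truncated libraries differed among themselves. CDF3 had 41.4, 69.4, 21.3 and 12.05 CPM in the truncated line, against 14.2, 9.07, 14.3 and 8.96 CPM in Col-0, and its call was lost without replicate 2 of the truncated line, at 1.07 (edgeR adjusted p 0.115). GI (AT1G22770) had 14.5, 48.3, 10.6 and 6.63 CPM and PRR7 (AT5G02810) 26.4, 50.3, 16.2 and 9.64 CPM in the same 4 libraries, with replicate 2 highest and replicate 4 lowest, against 28.9, 14.4, 30.0 and 17.3 CPM and 12.8, 8.32, 19.1 and 9.56 CPM in Col-0. PRR3, PRR5 and PRR7 were not called.

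The evening element AAAATATCT, a motif known from evening-phased promoters, was searched on both strands of the same 300 bases before each gene. It was in 6.16% of windows of genes called lower, 2.80% of those called higher, 3.15% of all tested genes, and 4 of the 10 evening genes. A match describes the letters only.

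**Figure D3:**
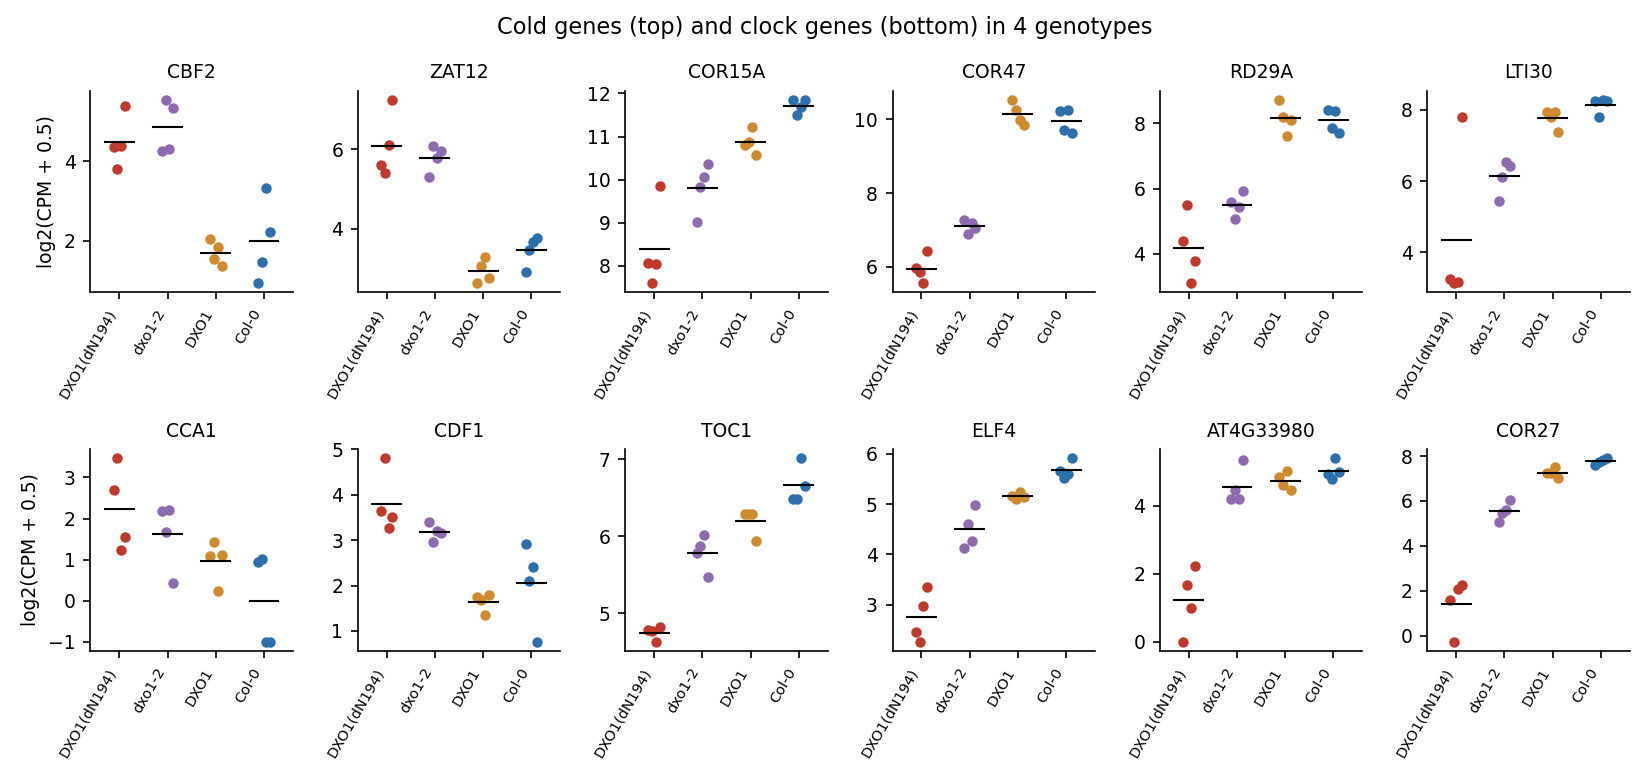
Each panel gives log2(CPM + 0.5) of 1 gene in 4 libraries (points) and their mean (bar) for, left to right, the truncated line DXO1(dN194), dxo1-2, the full-length active line DXO1 and Col-0; y axes differ between panels. COR47, TOC1 and COR27 were lowest in the truncated line, below dxo1-2, and in LTI30 replicate 4 of the truncated line lies apart from the other 3.

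Most nuclear genes for photosynthesis fell, by modest steps. These encode antenna proteins that bind chlorophyll around photosystems I and II, subunits of the photosystems themselves, and the small subunit of the carbon-fixing enzyme Rubisco. Of 27 genes, 23 were lower, 1 was higher and 3 were not called, with a median log2 fold change of -0.79 (12.4% of all tested genes were called lower). The summed level of the list was 128922 to 151232 CPM in the truncated line and 222211 to 260036 CPM in Col-0, without overlap. All 4 photosystem I antenna genes, all 5 reaction-centre and oxygen-evolving genes and 12 of 13 photosystem II antenna genes fell. LHCB6 (AT1G15820), a minor antenna of photosystem II, had 3369.8, 2897, 3952 and 4424 CPM in the truncated line, against 8747, 9465, 7714 and 10158 CPM in Col-0, a log2 change of -1.30 ± 0.17 (SE, adjusted p 8.1e-07 by edgeR). PSBP1 (AT1G06680), a subunit of the oxygen-evolving complex, had 4098, 3662, 3864 and 3495 CPM in the truncated line, against 9072, 9394, 8296 and 9275 CPM in Col-0, a log2 change of -1.25 ± 0.12 (SE, adjusted p 8.0e-09 by edgeR). LHCA2 fell by 1.16 and RBCS1A by 0.78 on the log2 scale. The exception was the Rubisco small subunit RBCS1B (AT5G38430), which rose, with 2084, 2012, 1847 and 1493 CPM in the truncated line, against 904, 1205, 559 and 1051 CPM in Col-0, a log2 change of 1.00 ± 0.18 (SE, adjusted p 1.2e-04 by edgeR). LHCB1.1 (-0.12), RBCS2B (-0.60) and Rubisco activase RCA (-0.04) were not called. LHCB1 and RBCS genes are close copies of each other. No gene of the list was called against dxo1-2, which is near the 3.03% of all tested genes called there.

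Most chlorophyll synthesis genes were not called. Of 14 genes 3 were higher, 1 was lower and 10 were not called, shares near those over all tested genes (16.8% higher, 12.4% lower). The median log2 fold change was 0.14 (-0.05 without replicate 2 of the truncated line). GUN4 (AT3G59400), which stimulates magnesium chelatase, had 622, 524, 703 and 743 CPM in the truncated line, against 163, 185, 144 and 198 CPM in Col-0, a log2 change of 1.91 ± 0.16 (SE, adjusted p 1.6e-09 by edgeR). CRD1 of the cyclase step averaged 2148 ± 400.1 CPM in the truncated line and 1081 ± 75.4 CPM in Col-0 (0.99 on the log2 scale), CAO rose by 0.70, a call lost without replicate 2 of the truncated line (edgeR adjusted p 0.0779), and CHLM fell by 0.50. Among 8 nuclear regulators of plastid genes 4 rose (16.8% of all tested genes were higher), namely the sigma factors SIG1 (1.14) and SIG5 (1.29) and the GLK factors GLK1 (0.59) and GLK2 (1.09), and none fell, although 1 was called lower without replicate 2 of the truncated line. The SIG5 call was lost without Col-0 replicate 1, 2 or 4 or truncated replicate 1 or 2. Of 80 tested genes of 133 of the chloroplast genome 2 were higher and 8 lower (16.8% and 12.4% of all tested genes), with a median log2 fold change of -0.14. The 2 higher calls, ATCG00180 and ATCG00190, dropped to 0 in 4 of the 8 fits leaving out 1 library (Col-0 replicates 2, 3 and 4 and replicate 3 of the truncated line) and to 1 without replicate 1 of the truncated line.

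Salicylate and jasmonate genes moved in opposite directions. Salicylate drives defence against biotrophic pathogens through EDS1, PAD4 (AT3G52430) and the NPR proteins, with PR genes as outputs, and jasmonate drives wound and necrotroph responses, with JAZ repressors that are also its early targets. Of 19 tested salicylate genes of 21 listed 12 were higher and 0 lower, with a median log2 fold change of 1.14, where 16.8% of all tested genes were higher and 12.4% lower. A fall of 1 signalling gene, NPR1, was called by DESeq2 and in 6 of the other settings tried, and its edgeR adjusted p here was 0.052 (27.7 ± 4.52 CPM in the truncated line and 41.7 ± 6.29 CPM in Col-0). WRKY54 (AT2G40750), a regulator in this pathway, had 169, 121, 154 and 164 CPM in the truncated line, against 24.6, 18.9, 19.8 and 14.3 CPM in Col-0, a log2 change of 2.95 ± 0.18 (SE, adjusted p 2.1e-12 by edgeR). PAD4 had 66.8, 61.5, 58.8 and 74.7 CPM in the truncated line, against 24.1, 18.9, 18.4 and 19.7 CPM in Col-0, a log2 change of 1.67 ± 0.19 (SE, adjusted p 1.3e-07 by edgeR). NIMIN1 (AT1G02450), an NPR1 interactor and salicylate target, had 29.9, 14.5, 29.0 and 46.4 CPM in the truncated line, against 4.73, 2.27, 2.04 and 2.39 CPM in Col-0, a log2 change of 3.28 ± 0.42 (SE, adjusted p 8.6e-07 by edgeR). The outputs PR2 and PR5 rose by 2.36 and 1.38 on the log2 scale. ALD1 (AT2G13810), an enzyme of N-hydroxypipecolate synthesis, had 3.99, 2.65, 2.57 and 18.7 CPM in the truncated line and was 2.76 with and 1.69 without replicate 4, where it was not called (edgeR adjusted p 0.0919). EDS1 (1.12) and the receptor gene NPR4 (0.70) lost their calls in several fits leaving out 1 library (EDS1 without Col-0 replicate 1, 2 or 4 or truncated replicate 2, NPR4 without any single library other than Col-0 replicate 2 or truncated replicate 4). In the synthesis branch the regulator CBP60G rose by 1.43, and the synthase ICS1 was not called (0.91, edgeR adjusted p 0.0536). The count of 1 higher in this branch was 2 without a filter on low counts or with the length trend removed, and 2 to 3 in the fits that left out 1 library, except without replicate 4 of the truncated line. ACD6 was the only tested member called against dxo1-2, at 1.01 ± 0.26 (SE, adjusted p 0.0277 by edgeR). This count of 1 is near the 3.03% of all tested genes called there.

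Of 30 tested jasmonate genes of 34 listed 19 fell and 0 rose, where 12.4% of all tested genes were lower and 16.8% higher, and the median log2 fold change was -1.72. In the synthesis branch 8 of 10 fell. AOC1 (AT3G25760), an allene oxide cyclase, had 43.9, 20.2, 57.3 and 57.2 CPM in the truncated line, against 454, 633, 591 and 473 CPM in Col-0, a log2 change of -3.60 ± 0.31 (SE, adjusted p 1.6e-09 by edgeR). LOX3 (AT1G17420), the lipoxygenase at the start of the pathway, had 13.97, 22.2, 9.55 and 13.9 CPM in the truncated line, against 159, 156, 174 and 107 CPM in Col-0, a log2 change of -3.30 ± 0.32 (SE, adjusted p 1.2e-08 by edgeR). OPR3 (AT2G06050), a reductase acting after the cyclase, had 26.4, 27.1, 36.4 and 45.8 CPM in the truncated line, against 280.5, 342, 339 and 256 CPM in Col-0, a log2 change of -3.17 ± 0.23 (SE, adjusted p 8.3e-11 by edgeR). JAR1, which makes the active isoleucine conjugate, fell by 1.87. Of 10 tested genes for MYC2 (AT1G32640) and the JAZ repressors 5 fell, led by JAZ10 (-3.06, and -4.33 without replicate 4 of the truncated line) and JAZ7 (-2.99 and -3.80), while MYC2, the central activator, averaged 59.4 ± 16.4 CPM in the truncated line and 59.0 ± 11.6 CPM in Col-0 and JAZ1 was at 0.80 (edgeR adjusted p 0.0803). JAZ1 was called higher in a fit of only the 8 libraries. The outputs CORI3 and PDF1.2 fell by 2.88 and 3.20. VSP2 was not called, at 18.7 ± 13.6 CPM in the truncated line and 18.6 ± 12.03 CPM in Col-0. The PDF1.2 genes are near-identical copies, and PDF1.2 was high in Col-0 replicate 2 (24.1, 103, 27.9 and 44.8 CPM over Col-0), so that its value was -2.59 without that library. Against dxo1-2, OPR3 (-1.22 ± 0.22 SE, adjusted p 0.00159 by edgeR) and JAZ7 were lower and VSP2 was higher in the truncated line. That comparison called 3.03% of all tested genes.

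Many genes known to be switched on by darkness and low sugar were lower in the truncated line. Of 16 tested members of 17 listed 10 fell and 1 rose (12.4% of all tested genes were lower and 16.8% higher), with a median log2 fold change of -1.63. Apart from DYL1 and AT2G33830, the strongest were ASN1 (AT3G47340), an asparagine synthetase used as a marker of low energy, at -3.84 (-4.75 without replicate 4 of the truncated line), and TPS10 (AT1G60140), a class II trehalose phosphate synthase, which had 6.98, 11.2, 8.45 and 10.8 CPM in the truncated line, against 99.3, 92.3, 108 and 77.0 CPM in Col-0, a log2 change of -3.32 ± 0.23 (SE, adjusted p 3.1e-11 by edgeR). The regulatory kinase subunit AKINBETA1 averaged 18.2 ± 3.55 CPM in the truncated line and 79.5 ± 15.6 CPM in Col-0 (-2.14 on the log2 scale). TPS8 and TPS11 fell by 1.83 and 2.42, whereas TPS5 rose by 1.52, a call lost without replicate 2 of the truncated line (edgeR adjusted p 0.0593). Against dxo1-2, where 3.03% of all tested genes were called, 6 of the 16 were lower and 0 higher. They include TPS10 (-1.77 ± 0.23 SE, adjusted p 5.8e-05 by edgeR) and SEN1 (-2.45 ± 0.43 SE, adjusted p 9.1e-04 by edgeR), a senescence-associated gene that averaged 3.96 ± 2.62 CPM in the truncated line, 20.9 ± 4.42 CPM in dxo1-2 and 20.4 ± 9.64 CPM in Col-0.

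Most phloem genes other than PP2-A1 were not called. Of 9 tested members of the 13 on the phloem list 2 fell, PP2-A1 and the amino acid permease AAP2 (AT5G09220), which had 11.0, 9.26, 9.91 and 10.8 CPM in the truncated line, against 126, 107, 135 and 139.8 CPM in Col-0, a log2 change of -3.63 ± 0.18 (SE, adjusted p 9.8e-14 by edgeR). The counts of 2 lower and 1 higher are each within about 1 gene of the share over all tested genes (12.4% lower, 16.8% higher). The sieve element genes SEOR1 (0.17) and SEOR2 (-0.23), the companion cell sucrose carrier SUC2 (-0.42) and the identity factor APL (-0.16) were not called. SWEET11, a sucrose exporter, rose by 0.57 on the log2 scale, a call lost without Col-0 replicate 2, Col-0 replicate 4 or replicate 3 of the truncated line, and with the length trend removed. The summed level of the list, PP2-A1 included, was 294 to 472 CPM in the truncated line and 682 to 831 CPM in Col-0.

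Genes for making ribosomes rose widely. Ribosomal proteins build the cytosolic ribosome, and box C/D and H/ACA proteins of the nucleolus take part in the modification of ribosomal RNA. Of 115 tested genes in a list of 138 drawn from ribosomal protein product names, 80 were higher and 6 lower, with a median log2 fold change of 0.99 (16.8% and 12.4% of all tested genes). Their summed level was 19697 to 25973 CPM in the truncated line and 8597 to 12737 CPM in Col-0. AT1G70600, an L18e/L15 family gene, had 555, 497, 617 and 589 CPM in the truncated line, against 107, 119, 87.9 and 118 CPM in Col-0, a log2 change of 2.39 ± 0.14 (SE, adjusted p 1.3e-12 by edgeR). AT1G15930 averaged 638 ± 101 CPM in the truncated line and 170.2 ± 43.1 CPM in Col-0 (1.91 on the log2 scale), and PGY1, a ribosomal protein gene known for leaf patterning, rose by 1.51. The product-name rule also let in genes of other kinds, and the 6 that fell include EMB3126 (-0.60), known as an L1 protein of the plastid ribosome, and AT1G54217 (-2.35), of an L18ae family. The count of 6 lower was 2 to 3 without Col-0 replicate 2, 3 or 4 or replicate 1 or 3 of the truncated line. Many ribosomal protein genes have near-identical copies. Against dxo1-2, where 3.03% of all tested genes were called, 1 of the 115 was lower and 0 were higher. The median log2 fold change of the 115 over dxo1-2 was -0.22. Of 7 tested nucleolar genes of 8 listed 6 rose, with a median log2 fold change of 1.84 (16.8% of all tested genes were higher). FIB1 (AT5G52470), a fibrillarin that methylates ribosomal RNA, had 277, 263, 288 and 276 CPM in the truncated line, against 79.0, 88.5, 68.1 and 98.6 CPM in Col-0, a log2 change of 1.72 ± 0.15 (SE, adjusted p 1.5e-09 by edgeR). FIB2 (AT4G25630) had 33.9, 31.7, 37.8 and 35.5 CPM in the truncated line, against 2.84, 7.56, 2.04 and 4.18 CPM in Col-0, a log2 change of 3.10 ± 0.29 (SE, adjusted p 5.7e-09 by edgeR). CBF5 (AT3G57150), the pseudouridine synthase of H/ACA particles, had 102, 98.2, 112 and 128 CPM in the truncated line, against 17.97, 22.7, 20.4 and 36.4 CPM in Col-0, a log2 change of 2.17 ± 0.19 (SE, adjusted p 1.8e-09 by edgeR). The C/D particle genes AT5G27120, NOP56 and AT3G05060 stood at 3.40, 1.84 and 1.32, with replicates 1 and 2 above replicates 3 and 4 in each, and the AT3G05060 call was lost without replicate 2 of the truncated line. Nucleolin NUC1 was not called (0.16). None of the 7 tested nucleolar genes was called against dxo1-2, which is near the 3.03% of all tested genes called there.

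Genes of sulphur and iron deficiency were mostly higher. All 5 sulphur genes rose, with a median log2 fold change of 2.92 (16.8% of all tested genes were higher). APR3 (AT4G21990), an enzyme that reduces activated sulphate, had 56.4, 53.6, 57.7 and 50.0 CPM in the truncated line, against 6.15, 3.78, 5.45 and 2.99 CPM in Col-0, a log2 change of 3.53 ± 0.31 (SE, adjusted p 2.2e-09 by edgeR). APR2 (AT1G62180) had 174, 140.2, 199 and 161 CPM in the truncated line, against 32.2, 21.9, 18.4 and 15.5 CPM in Col-0, a log2 change of 2.92 ± 0.23 (SE, adjusted p 3.0e-10 by edgeR). Both groups were tight and far apart. APR1 rose by 1.405, LSU1 stood at a ratio of 34.9-fold (exact 95% counting interval 11.7 to 171), and ATSDI1 rose by 1.74, a call lost without Col-0 replicates 1 or 2 or replicate 4 of the truncated line. APR2 and APR3 also exceeded dxo1-2, by 1.13 ± 0.21 (SE, adjusted p 0.00158 by edgeR) and 1.38 ± 0.25 (SE, adjusted p 0.00164 by edgeR). That comparison called 3.03% of all tested genes. Of 6 tested iron genes of 10 listed 4 were higher and 1 lower (16.8% and 12.4% of all tested genes). The 3 small genes AT1G47400, AT1G47395 and AT2G30766, on the list as iron deficiency genes, rose by 4.56, 4.12 and 4.28. AT2G30766 had 143, 72.1, 147 and 198 CPM in the truncated line, against 5.203, 9.83, 8.18 and 5.97 CPM in Col-0, a log2 change of 4.28 ± 0.45 (SE, adjusted p 3.9e-08 by edgeR). AT1G47400 and AT1G47395 are neighbours and may share reads, and without Col-0 replicate 3 the AT1G47395 value was 4.72. The iron-regulated factors bHLH38, bHLH39, bHLH100 and bHLH101 had too few counts to be tested. The iron stores FER3 (0.58) and FER4 (-0.80) were called higher and lower, but each call was lost in 3 or 4 of 8 fits leaving out 1 library (FER3 without Col-0 replicate 1 or 3 or truncated replicate 4, FER4 without Col-0 replicate 4 or truncated replicate 1, 2 or 3), and FER1 was not called.

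Nitrogen and phosphate genes moved in part. Of 8 tested nitrogen genes of 9 listed 4 rose and 0 fell, with a median log2 fold change of 0.37 (16.8% of all tested genes were higher). LBD39 (AT4G37540), a repressor induced by nitrate, had 35.9, 27.8, 49.6 and 39.8 CPM in the truncated line, against 8.04, 9.83, 10.2 and 9.56 CPM in Col-0, a log2 change of 2.03 ± 0.24 (SE, adjusted p 2.2e-07 by edgeR), and the nitrate transceptor NRT1.1 rose by 1.404. The nitrate reductases NIA1 (-0.49) and NIA2 (0.03) and nitrite reductase NIR1 (-0.01) were not called. With the length trend removed, 1 gene of the nitrogen list was called lower. Of 4 tested phosphate genes of 7 listed SPX1 rose by 1.44 and the acid phosphatase PAP17 by 2.92 (2.196 without replicate 4 of the truncated line).

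Among specialized metabolites, aliphatic glucosinolates (sulphur-rich defence compounds) showed 7 of 11 tested genes (13 listed) higher and 0 lower, with a median log2 fold change of 0.91 (16.8% of all tested genes were higher). The factors MYB28 and MYB29 rose by 1.37 and 1.00, and the sulphotransferase SOT17 (AT1G18590) had 58.4, 47.9, 50.7 and 42.2 CPM in the truncated line, against 14.2, 15.9, 15.0 and 11.9 CPM in Col-0, a log2 change of 1.81 ± 0.25 (SE, adjusted p 2.5e-06 by edgeR). The count was 4 without replicate 2 of the truncated line, the library highest in CYP79F1 (120.2, 165, 64.6 and 26.5 CPM in the truncated line, 34.1, 40.1, 36.1 and 19.7 CPM in Col-0) and AT2G31790. Of 8 tested indole glucosinolate and camalexin genes of 9 listed 1 was higher and 2 were lower, each within about 1 gene of the share over all tested genes (16.8% higher, 12.4% lower). The higher one, CYP71A13, had 1.50, 1.98, 4.77 and 27.1 CPM in the truncated line, and without replicate 4 its value was 0.73 and not called (edgeR adjusted p 0.48), nor was it called without Col-0 replicate 1, 2 or 3. MYB34 and CYP79B3 fell by 0.99 and 0.90, MYB34 not without Col-0 replicate 2 or 4 or truncated replicate 2. Chalcone synthase CHS (AT5G13930), the first flavonoid enzyme, had 248, 320.4, 142 and 54.8 CPM in the truncated line, against 35.0, 36.3, 33.4 and 32.3 CPM in Col-0, a log2 change of 2.49 ± 0.48 (SE, adjusted p 2.6e-04 by edgeR), and flavonol synthase FLS1 rose by 1.82. The other 2 tested flavonoid genes, CHI and F3H, were not called, and 8 of 12 on that list had too few counts to be tested.

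In abscisic acid sensing, 4 of 8 tested receptor genes rose and 1 of 7 clade A phosphatases, which the receptors inhibit, fell, out of 18 listed genes. The count of phosphatases is near the 12.4% of all tested genes that were lower, and 16.8% of all were higher. PYR1 (AT4G17870) had 60.4, 49.9, 68.7 and 71.1 CPM in the truncated line, against 16.1, 18.9, 16.4 and 15.5 CPM in Col-0, a log2 change of 1.90 ± 0.23 (SE, adjusted p 3.1e-07 by edgeR). PYL4, PYL8 and PYL1 rose by 1.45, 1.03 and 0.99, PYL1 not without Col-0 replicate 1 or 3 or truncated replicate 4. The phosphatase PP2CA (AT3G11410) had 48.9, 37.7, 64.3 and 127 CPM in the truncated line, against 166, 175, 153 and 191 CPM in Col-0, a log2 change of -1.32 ± 0.28 (SE, adjusted p 6.6e-04 by edgeR), with replicate 4 nearest to Col-0. For the abscisic acid list, 4 genes were lower without replicate 4 of the truncated line, 2 without Col-0 replicate 1, and 2 with DESeq2 or median-of-ratios size factors. Endoplasmic reticulum chaperones showed 4 of 8 higher and 0 lower (16.8% of all tested genes were higher), and replicate 2 of the truncated line was the highest library in all 4. SHD (AT4G24190), an HSP90-type chaperone, had 47.9, 127, 16.2 and 19.3 CPM in the truncated line, against 10.4, 11.3, 15.0 and 7.17 CPM in Col-0 (2.29, and 1.32 and not called without that library). The ER stress count was 1 without replicate 2 of the truncated line and 2 without Col-0 replicate 2, and the sensor target bZIP60 was not called (-0.06). No heat shock gene of 7 had enough counts to be tested.

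Enzymes that act on RNA 5′ ends beside DXO1 gave no further call in the fit of all libraries. The exonucleases XRN2, XRN3 and XRN4 stood at 1.33, 0.71 and -0.37, the decapping genes DCP1, DCP2, VCS and DCP5 at 0.01, -0.65, 0.20 and -0.17, and AT3G20650, annotated as an mRNA capping enzyme family protein, at -0.74 on the log2 scale. DXO1 was the only 1 of 10 tested in this role that passed. DXO1 is the gene mutated in the parent line, so its call cannot be set against the share over all tested genes (12.4% lower, 16.8% higher). The genes of this role had low counts (XRN4, 5.42 ± 4.38 CPM in the truncated line and 7.66 ± 3.39 CPM in Col-0). An enzyme of this role was called higher without a filter on low counts, with the length trend removed, and without replicate 4 of the truncated line (XRN2 in the last), and 2 were called lower with the length trend removed. Of 2 tested silencing genes of 7 listed 1 was higher (16.8% of all tested genes were higher). This was AGO2, at 1.57, a call lost without Col-0 replicate 1, 3 or 4 or truncated replicate 1 or 2.

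**Figure D4:**
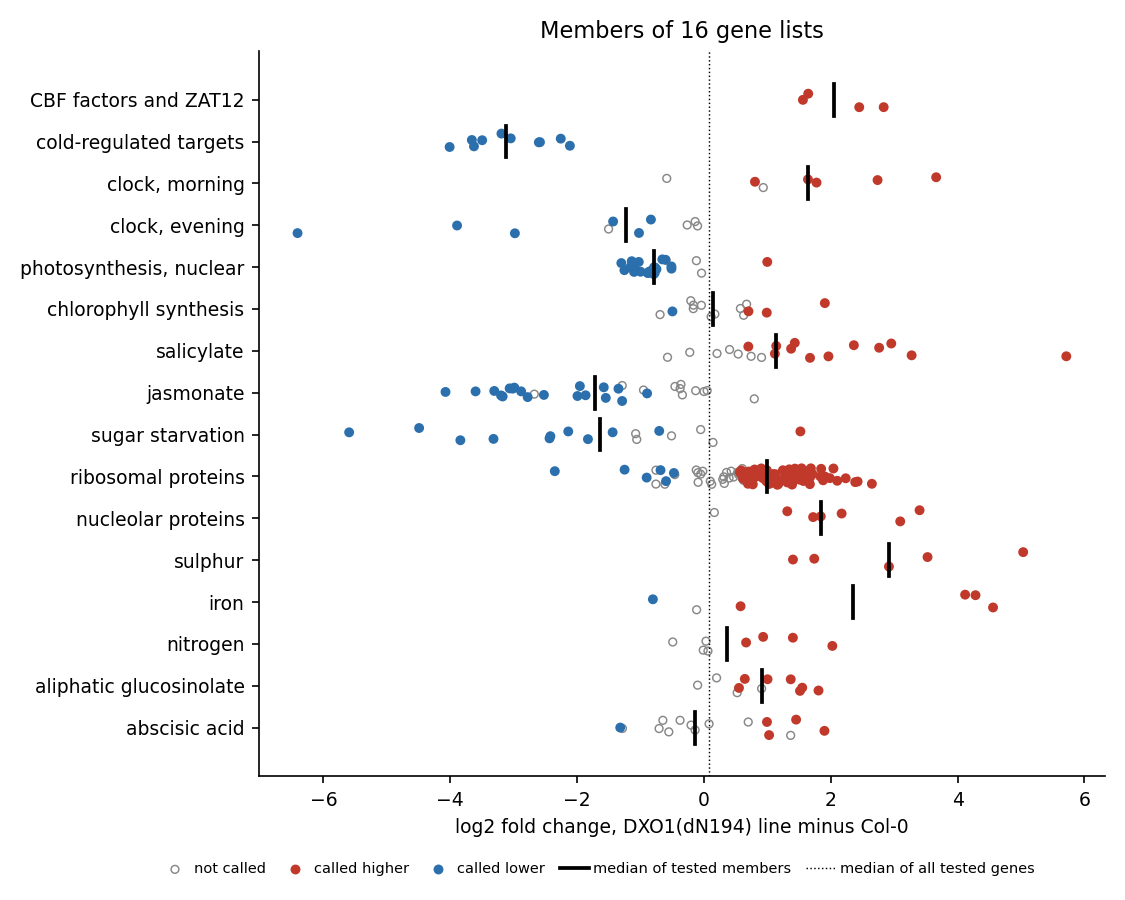
Each point is the log2 fold change of 1 tested member of a gene list, filled red where called higher, blue where called lower and open where not called; black bars are list medians and the dotted line is the median of all tested genes, 0.08. The 10 cold-regulated targets, with a median of -3.12, lie apart from the 4 factors above them, and the salicylate and jasmonate medians are 1.14 and -1.72.

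Markers of other organs were low. Among all tested genes 16.8% were called higher and 12.4% lower. With so few markers tested, the counts called here cannot be told apart from those shares. Of 10 flowering and floral organ markers 1 had enough counts to be tested, SOC1, which was lower at -0.73 (48.8 ± 15.9 CPM in the truncated line and 80.2 ± 4.33 CPM in Col-0), a call lost without Col-0 replicate 2 or 4 or truncated replicate 1 or 2. The summed level of these 10 was 34.1 to 73.5 CPM in the truncated line and 83.1 to 89.4 CPM in Col-0, with LFY, AP1 and AP3 at 0 counts in all 8 libraries. Of 6 root markers 2 were tested and 0 called, with sums of 19.1 to 23.5 CPM in the truncated line and 10.2 to 15.9 CPM in Col-0, and EXPA7, COBL9 and RHD6 at 0. Of 9 seed markers 7 were tested and 0 called, with sums of 56.2 to 129 CPM in the truncated line and 123 to 197 CPM in Col-0 (1 to 2 were called lower with the length trend removed, without truncated replicate 3, or in the fit of only the 8 libraries). Of 3 guard cell markers MYB60 (AT1G08810) rose, at 25.2 ± 5.99 CPM in the truncated line and 8.16 ± 2.45 CPM in Col-0 (1.64 on the log2 scale), and the sums were 22.3 to 42.3 CPM in the truncated line and 13.6 to 17.0 CPM in Col-0. Their part in the results above was not tested.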

How the data were processed

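Counts of 3′ RNA-seq reads per gene were deposited by the authors as 1 table per library. They are whole numbers with no normalization, as the values show, over 37184 loci, 36899 of which matched the annotation used here. Per the labels, cDNA was primed with barcoded oligo(dT) and read 1 carried a molecular identifier; whether identifiers or strand were used in counting is not given in the sources used here. The submitters' processing notes name STAR 2.7.8a, DESeq2 and TAIR10, without their roles. Intervals cover counting error only.

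All 24 libraries, totals 1270033 to 3490594, entered 1 fit of edgeR 4.0.16 (R 4.3.3, TMM, filter on low counts by group, quasi-likelihood test), with Benjamini-Hochberg adjustment over 13592 genes. The contrasts were the truncated line minus Col-0, dxo1-2 and the full-length active line. SE is the absolute log2 fold change over the square root of F. Genes named singly are DXO1, list members, and the 12 highest and 12 lowest called genes whose groups did not overlap and whose higher group averaged 20 counts or more. Members and lists were chosen with earlier results of these data known. Library shares were compared with exact permutation tests. Of 12 replicate pairs 0 were identical. The chi-square per degree of freedom was 3.45 to 20.6 between truncated libraries and 1.75 to 4.53 between Col-0 libraries.

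Other settings were DESeq2 1.42.0, median-of-ratios size factors in edgeR, no filter, at least 10 counts in each of the 8 libraries, a fit of only these, no organelle genes, a block for the replicate number, a length trend (lowess, span 0.3, lengths for 99.4% of tested genes) removed, and leaving out each of the 8. The fit was also tested on simulated counts. Sequences and positions are from RefSeq TAIR10.1; the count tables hold no coordinates. Another upstream sequence, beyond the 3 printed, is not reported here.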

Additional observations from a re-analysis of the deposited data

Results flagged for a closer look

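Of 58 groups of 4 libraries examined, 10 held a library whose gap to the others exceeded the critical value. Chance gives about 1 in 20 for groups not chosen by their values. The highest and lowest genes were picked by fold change and no overlap, so this rate does not apply to their groups in either line. Among these are 6 flagged Col-0 groups with 3 values at 0, in genes picked partly for being nearly silent there. The flagged groups of the truncated line are also among them, and there the library with the gap was replicate 4 each time. Their genes were BBX30 (20.5 CPM, the others 5.62 to 6.98), AT3G13950 (44.6 CPM, the others 0.661 to 4.77) and AT1G49000 (3.01 CPM, the others 0.331 to 0.499). In Col-0 the library was the only one with reads of a nearly silent gene. These were SADHU3-2 in replicate 1 (0.473 CPM), AT5G26270 in replicate 2 (0.756 CPM), AT2G21220 in replicate 3 (0.681 CPM), BBX30 in replicate 3 (0.681 CPM), AT5G47610 in replicate 2 (0.756 CPM) and CAX3 in replicate 4 (1.79 CPM). The chloroplast share of counts was 5.23% in Col-0 replicate 1 and 4.34% to 4.46% in the other Col-0 libraries. The cause was not tested.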

How the results depend on the processing

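The count of 3967 called genes was 3979 with median-of-ratios size factors, 4110 in DESeq2, 3930 without a filter on low counts, 2829 of 7798 tested with at least 10 counts in each library, 3508 in a fit of only the 8 libraries, 3997 without organelle genes, 4856 with the length trend removed, and 3336 to 4274 when 1 library was left out. No gene called in both changed sign in any of these. The share of calls that were higher was 55.5% in DESeq2, 60.7% without a filter, 55.8% in the fit of only these libraries, 47.7% with the length trend removed, and 54.9% (without replicate 4 of the truncated line) to 60.04% (without its replicate 1) when 1 library was left out. The cause was not tested. DXO1 was called lower in every setting that tested it, which leaves out the minimum of 10 counts. Of DXO1, the 12 highest and the 12 lowest genes, only AT3G13950 lost its call when 1 library was left out (replicate 4 of the truncated line). Requiring 10 counts in each library removes many list members from testing and so lowers list counts by construction.

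Replicate numbers did not pair the libraries: correlations of deviations between same-numbered libraries were -0.16 to 0.31, and 2 of 8 libraries correlated best with their own number. The replicate block gave 4196 calls, 56.6% of them higher. Depth limits genes with few counts, where a change that did not pass is not shown to be absent.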

Other observations

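Grouped by annotated product, 73 names had at least 15 tested genes. The name with the highest share called higher was SAUR-like auxin-responsive proteins, small growth regulators, with 18 of 37 higher and 4 lower. Lipid-transfer and 2S albumin proteins had 11 of 24 higher and 2 lower, TIR-NBS-LRR disease resistance proteins 11 of 28 higher and 0 lower, mitochondrial transcription termination factor family proteins, which act in organelles, 6 of 16 higher and 0 lower, HXXXD-type acyl-transferases 7 of 20 higher and 4 lower, and histones 9 of 26 higher and 0 lower. On the other side, O-glycosyl hydrolases of family 17 had 6 of 16 lower and 2 higher, adenine nucleotide alpha hydrolases-like proteins 6 of 17 lower and 0 higher, RING/FYVE/PHD zinc finger proteins 7 of 21 lower and 2 higher, ubiquitin-like proteins 7 of 22 lower and 0 higher, and major facilitator transporters 21 of 68 lower and 6 higher. Among all tested genes 16.8% were higher and 12.4% lower. Members of such families have close copies and are not independent, and the names were sorted after their values were seen.

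Long noncoding RNAs and pseudogenes gave 14 higher and 5 lower of 72, and 9 higher and 4 lower of 33, and transcribed pseudogenes 9 higher and 4 lower of 35, beside 16.8% higher and 12.4% lower over all tested genes, so that the long noncoding RNAs called higher and the pseudogenes called lower are near those shares. Small nucleolar RNAs, which are not polyadenylated in their mature form, gave 4 higher and 0 lower of 12. By exon length, 62.2% of calls were higher in the shortest of 4 equal parts of the genes and 53.8% in the longest.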
